A study of Mus musculus with 15 samples.

Results

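Fatty acid synthesis and desaturation were followed through 10 genes in mouse aorta: Scd1, Scd2, Fasn, Acaca, Acly, Elovl6, Srebf1, Mlxipl, Me1 and Thrsp. The genes were chosen by name as the core of the pathway, with earlier results of these data known. The deposited table of 34714 genes holds all 10. All 10 were among the 12603 genes tested, which reached 1 in 5 or more libraries. RNA was sequenced from the aorta of wild-type mice in 3 groups of 5 libraries. AngII + RvE1 mice received angiotensin II, a peptide that constricts vessels and raises blood pressure, at an infusion rate of 750 ng/kg/min, and intraperitoneal resolvin E1 (RvE1), a lipid mediator that helps end inflammation, at 2 µg/kg/day. AngII mice received the same infusion without RvE1, and Sham mice received neither agent. The labels do not state age, sex, infusion time, the hour of collection or how much surrounding fat was kept. Nor do they state that each library came from a separate animal, so a p-value here reflects the spread among libraries, which may be technical.

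De novo fatty acid synthesis turns citrate from the mitochondrion into palmitate in the cytosol. Palmitate is then lengthened to stearate and given a double bond, which makes the monounsaturated fatty acids stored in triglyceride. In rodents the pathway runs mainly in liver and fat, where feeding and insulin raise its genes, and the mouse aorta is wrapped in perivascular fat that resembles brown fat along the thoracic part. Acly encodes ATP citrate lyase, which cleaves citrate to acetyl-CoA, and Me1 the malic enzyme that supplies NADPH. Acaca encodes acetyl-CoA carboxylase, which makes malonyl-CoA, and Fasn the fatty acid synthase that assembles palmitate. Elovl6 encodes the elongase acting on palmitate, and Scd1 and Scd2 encode stearoyl-CoA desaturases of the endoplasmic reticulum. Srebf1 (SREBP-1) and Mlxipl (ChREBP) encode transcription factors that respond to insulin and to sugar, and Thrsp (Spot 14) encodes a small protein that promotes lipogenesis.

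Promoter windows are shown because most members were high and low in the same libraries. The RefSeq table of GRCm38.p6, which is the mm10 assembly, gave windows of 250 bases before to 50 after a start for 8 of the 10 members (12 windows), and Scd1 and Scd2 were not matched. Both strands were searched for TCACNCCAC, a form of the sterol regulatory element (SRE) bound by SREBP, for the E-box CACGTG, for the NF-Y box CCAAT and for the GC box GGGCGG. These were found in 1.24%, 7.15%, 37.4% and 35.7% of 32851 windows of the same length. Capitals mark matches, and overlapping NF-Y boxes run together in Fasn. The windows are Fasn at chr11:120824498-120824797 (minus strand), Acly at chr11:100527951-100528250 (minus), Thrsp at chr7:97417501-97417800 (minus) and the downstream of the pair of Mlxipl windows at chr5:135106641-135106940 (plus).
Fasn: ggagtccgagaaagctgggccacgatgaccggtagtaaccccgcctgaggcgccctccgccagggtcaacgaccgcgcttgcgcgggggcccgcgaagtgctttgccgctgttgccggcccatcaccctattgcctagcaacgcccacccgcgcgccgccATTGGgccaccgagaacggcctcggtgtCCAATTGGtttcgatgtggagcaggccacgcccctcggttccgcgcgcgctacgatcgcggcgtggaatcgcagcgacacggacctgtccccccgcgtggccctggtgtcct
Acly: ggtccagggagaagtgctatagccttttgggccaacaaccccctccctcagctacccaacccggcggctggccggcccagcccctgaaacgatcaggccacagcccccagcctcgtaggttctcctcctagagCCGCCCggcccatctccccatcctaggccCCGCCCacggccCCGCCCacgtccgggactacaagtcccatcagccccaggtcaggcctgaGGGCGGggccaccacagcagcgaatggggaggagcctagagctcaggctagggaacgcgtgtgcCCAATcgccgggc
Thrsp: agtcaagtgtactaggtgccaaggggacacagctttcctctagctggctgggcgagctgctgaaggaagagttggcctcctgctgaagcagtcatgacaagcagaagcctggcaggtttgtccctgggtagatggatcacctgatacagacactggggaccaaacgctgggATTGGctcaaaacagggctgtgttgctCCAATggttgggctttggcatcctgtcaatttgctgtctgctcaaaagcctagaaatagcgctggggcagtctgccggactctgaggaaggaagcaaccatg
Mlxipl: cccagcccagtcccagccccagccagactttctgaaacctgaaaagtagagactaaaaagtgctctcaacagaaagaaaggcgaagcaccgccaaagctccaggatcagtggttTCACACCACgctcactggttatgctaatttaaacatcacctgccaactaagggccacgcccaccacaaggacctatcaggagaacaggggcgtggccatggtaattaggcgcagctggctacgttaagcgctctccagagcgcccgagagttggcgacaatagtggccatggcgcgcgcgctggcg
The Fasn window held 3 NF-Y boxes on either strand, 90, 62 and 59 bases before the start. Thrsp held 2, at 79 and 52 bases before it, and Acly held 4 GC boxes and 1 NF-Y box. The SRE letters occurred in the Mlxipl window shown, 136 bases before its start, and in none of the other 11 windows. The E-box occurred in the other Mlxipl window. Over all 12 windows, 7 held an NF-Y box and 5 a GC box, and the windows of Elovl6 and Acaca held none of the 4 motifs. The Acaca window, at chr11:84195188-84195487 (plus), is at an internal start, since the gene begins at 84129635. The sequence before that first base of Acaca was not searched. These matches are descriptions of sequence, not of binding.

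The deposited values are treated as FPKM, which are scaled to gene length and library depth, and read depth is unknown. The 15 library totals lay between 385846 and 514281. The libraries differed in the levels of cell type markers. Smooth muscle markers, which define the vessel wall, summed to 5407 to 9747 FPKM in AngII + RvE1, 1200 to 3390.5 in AngII and 1756 to 12255 in Sham. Fat cell markers were abundant in every library. The 10 genes listed as white adipocyte markers summed to 7130 to 13110 FPKM in AngII + RvE1, 9427 to 17808 in AngII and 7599 to 19505 in Sham, and none of the 10 was at 0 throughout a group. Fabp4 made up most of these sums, at 5458 to 10380, 6325 to 13392 and 5578 to 16336 FPKM in AngII + RvE1, AngII and Sham. Whether the list tells white from brown fat here was not tested. The 9 brown adipocyte markers summed to 2929 to 8483, 931 to 9338 and 2229 to 12411 FPKM in the same groups. Lymphocyte markers summed to 849.7, 286 and 1296 FPKM in AngII libraries 3, 4 and 5 and to at most 67.3 FPKM in the other 12 libraries, so results are also given without those 3. Only AngII libraries 1 and 2 then remain in their group, so a lost call cannot be told apart from the smaller group size. In bulk aorta, fewer cells of a type and less RNA per cell cannot be told apart.

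The members spanned a wide range of length-scaled levels. Scd1 ranked 7th among tested genes by its mean over the 15 libraries (2814 FPKM), Thrsp 27th (1434 FPKM) and Fasn 48th (971 FPKM). Acly, Me1 and Acaca averaged 306, 185 and 142 FPKM. Elovl6, Srebf1, Scd2 and Mlxipl averaged 60.7, 51.0, 42.6 and 41.6 FPKM. Scd1 alone held up to 1.68% of a library's summed FPKM, in Sham library 4, where it was the second most abundant gene. The 10 genes together held 0.457% to 2.45% of the summed FPKM in AngII + RvE1, 0.362% to 1.20% in AngII and 0.586% to 3.10% in Sham.

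**Figure D1:**
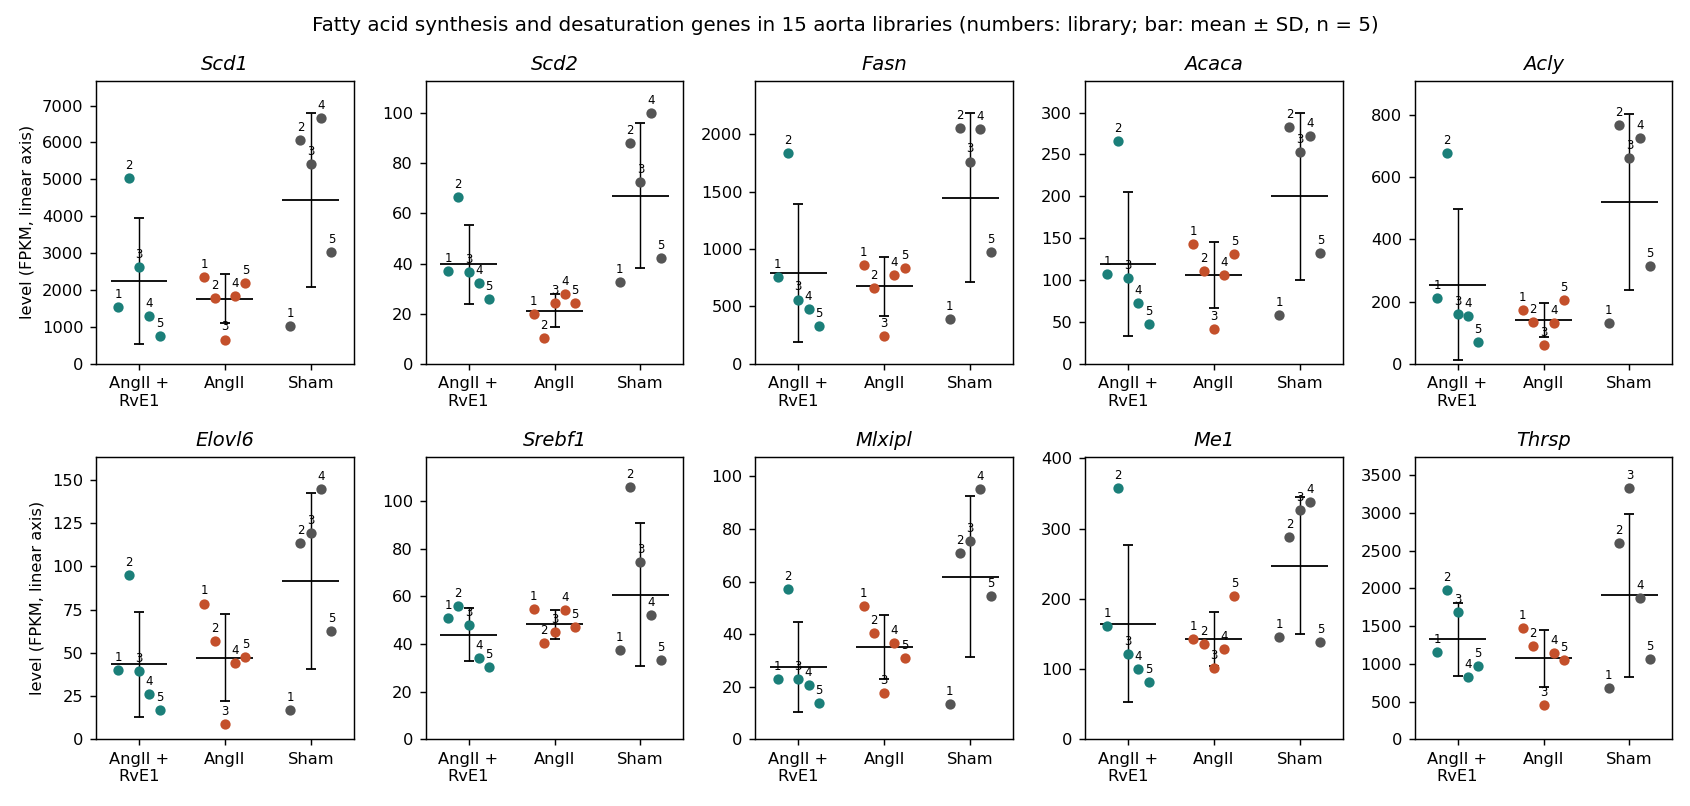
Level of each of the 10 genes in FPKM (vertical, linear axis from 0) in the 5 libraries of AngII + RvE1, AngII and Sham. Points are libraries with their number, bars the mean ± SD (n = 5). In 9 of the 10 panels groups overlap; in that of Scd2 every AngII point, at most 27.7 FPKM, lies below every Sham point, at least 32.5 FPKM.

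Of the desaturases, Scd2 was lower in AngII than in Sham. Scd2 lies on chromosome 19 from 44293676 to 44306864, and Scd1 on the same chromosome from 44394450 to 44407709. Scd2 values were 36.9, 66.7, 36.6, 32.3 and 25.7 FPKM in AngII + RvE1 libraries 1 to 5, 19.9, 10.2, 24.3, 27.7 and 24.05 FPKM in AngII, and 32.5, 87.9, 72.5, 99.99 and 42.1 FPKM in Sham. All 5 AngII libraries lay under all 5 Sham libraries, while AngII + RvE1 overlapped both. Means were 39.6 ± 15.8 FPKM in AngII + RvE1, 21.2 ± 6.76 FPKM in AngII and 67.0 ± 29.0 FPKM in Sham, each over 5 libraries with the SD. Set against Sham, AngII differed by -1.56 on the log2(FPKM + 1) scale (SE 0.34), with a limma adjusted p = 0.0300 over all 12603 genes. Scd2 was thus 1 of 10 members called, and 0.809% of tested genes were called lower in this comparison. It was also the 1 member of 10 whose groups did not overlap, against 0.778% of tested genes lower without overlap.

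Between AngII + RvE1 and AngII, Scd2 differed by 0.87 on the log2 scale (SE 0.34) and did not pass (limma adjusted p = 0.107). Against Sham, AngII + RvE1 differed by -0.69 (SE 0.34, adjusted p = 0.752). The call in AngII against Sham was lost when any of 5 single libraries was left out, while the difference stayed of similar size. Without Sham library 2 or 4, or without AngII library 3, 4 or 5, the log2 difference was -1.44, -1.39, -1.63, -1.67 or -1.62 and the limma adjusted p 0.0732, 0.0506, 0.0521, 0.0511 or 0.0646. Without AngII libraries 3, 4 and 5 together the log2 difference was -2.03 (adjusted p = 0.138).

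Scd1, the main desaturase of fat and liver, varied more within groups than between them. Its values were 1546, 5034, 2621, 1281 and 756 FPKM in AngII + RvE1, 2341, 1792, 656, 1823 and 2193 FPKM in AngII, and 1023, 6058, 5404, 6658 and 3027 FPKM in Sham. Sham libraries 2 to 5 were above every AngII library, and Sham library 1 was below 4 of those 5. The log2 difference was -1.19 (SE 0.59) for AngII against Sham, 0.17 (SE 0.59) for AngII + RvE1 against AngII and -1.02 (SE 0.59) for AngII + RvE1 against Sham, with limma adjusted p of 0.213, 0.881 and 0.835. To compare the pair of desaturases directly, log2(FPKM + 1) of Scd1 was subtracted from that of Scd2 in each library. The difference had a mean and SD over 5 libraries of -5.56 ± 0.60 in AngII + RvE1, -6.26 ± 0.997 in AngII and -5.88 ± 0.53 in Sham. The changes between groups were -0.38 for AngII against Sham, 0.70 for AngII + RvE1 against AngII and 0.32 for AngII + RvE1 against Sham. None passed (exact two-sided permutation p = 0.468, 0.222 and 0.429, each 0.468 after Benjamini-Hochberg adjustment over the 3, with 0.00794 the smallest p possible). Scd1 was thus not shown to respond differently from Scd2. The Scd1 to Scd2 ratio of levels ran from 27.0 in AngII library 3 to 176 in AngII library 2, and that of the 5 Sham libraries from 31.4 to 74.5.

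Among the enzymes that make palmitate, Acly had the largest difference of the 10 genes in AngII against Sham. Acly lies on chromosome 11 from 100476352 to 100528000. Its values were 211, 678, 159, 154 and 70.8 FPKM in AngII + RvE1, 174, 135, 61.5, 130.1 and 205 FPKM in AngII, and 129.9, 768, 662, 728 and 316 FPKM in Sham. Sham libraries 2 to 5 exceeded every AngII library, and Sham library 1 did not. AngII minus Sham was -1.72 (log2, SE 0.58), which missed the threshold (limma adjusted p = 0.0913), and -2.15 (adjusted p = 0.0475) without Sham library 1, the 1 omission of a single library that added a called member. AngII + RvE1 differed from AngII by 0.54 (SE 0.58, adjusted p = 0.573) and from Sham by -1.18 (SE 0.58, adjusted p = 0.760).

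Acly also departed from the enzyme downstream of it. The Acly to Fasn ratio of levels was 0.215 to 0.369 in AngII + RvE1, 0.168 to 0.254 in AngII and 0.325 to 0.376 in Sham, so AngII and Sham did not overlap. Of 12602 genes set against Fasn in this way (log2(FPKM + 1) of each gene minus that of Fasn), Acly was the only gene lower without overlap in AngII against Sham (0.00794%). That share is low by the choice of Fasn, since the median gene was 1.11 higher in AngII than in Sham on this measure. The ratio was chosen after the values were seen and was not tested. The Acaca to Fasn ratio, by contrast, stayed between 0.133 and 0.183 in all 15 libraries.

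Fasn, on chromosome 11 from 120805958 to 120825166, had 759, 1837, 560.0, 476 and 329 FPKM in AngII + RvE1, 863, 657, 242, 773 and 836 FPKM in AngII, and 389.9, 2058, 1764, 2045 and 972 FPKM in Sham. Sham libraries 2 to 5 were above all AngII libraries, and Sham library 1 was among the lowest of the 15. Its log2 difference was -0.996 (SE 0.54) for AngII against Sham, 0.09 (SE 0.54) for AngII + RvE1 against AngII and -0.90 (SE 0.54) for AngII + RvE1 against Sham, with limma adjusted p of 0.250, 0.932 and 0.840. Acaca averaged 119 ± 85.6, 106 ± 39.4 and 199.8 ± 99.6 FPKM in AngII + RvE1, AngII and Sham, and Elovl6 43.4 ± 30.3, 47.2 ± 25.2 and 91.4 ± 51.0 FPKM (SD, n = 5 each). Me1 averaged 164 ± 112, 143 ± 38.1 and 247 ± 97.7 FPKM. For these 3 genes no comparison passed, and the AngII against Sham differences were -0.81 for Acaca, -0.90 for Elovl6 and -0.72 for Me1 (limma adjusted p = 0.320, 0.381 and 0.228).

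Of the regulators, Srebf1 had the narrowest range within AngII of the 10 genes. Srebf1 values were 51.1, 56.0, 47.95, 34.3 and 30.5 FPKM in AngII + RvE1, 54.5, 40.4, 45.1, 54.3 and 47.2 FPKM in AngII, and 37.5, 106, 74.5, 52.3 and 33.3 FPKM in Sham. The highest AngII library was 1.35 times the lowest for Srebf1, compared with 3.57 times for Fasn and 8.59 times for Elovl6. Its log2 difference for AngII against Sham was -0.20 (SE 0.27, limma adjusted p = 0.673). The table has 1 value for Srebf1, so its transcript forms were not told apart. Mlxipl averaged 27.6 ± 17.0 FPKM in AngII + RvE1 (SD, n = 5), 35.2 ± 12.3 FPKM in AngII and 61.9 ± 30.7 FPKM in Sham, and Thrsp 1324 ± 489, 1072 ± 379 and 1907.5 ± 1083 FPKM. Mlxipl had the lowest unadjusted p of the 10 genes in AngII + RvE1 against Sham (0.0386), where its difference was -1.06 (SE 0.47) and did not pass (limma adjusted p = 0.704). Thrsp differed by -0.71 in AngII against Sham and by 0.33 in AngII + RvE1 against AngII (limma adjusted p = 0.322 and 0.663).

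Over the 10 genes, 1 was called in AngII against Sham, 0 in AngII + RvE1 against AngII and 0 in AngII + RvE1 against Sham by limma. The shares of all tested genes called in either direction were 3.17%, 8.52% and 0.0238%. No member had groups free of overlap in AngII + RvE1 against AngII (11.1% of tested genes, in either direction) or in AngII + RvE1 against Sham (1.09%). At an unadjusted p under 0.05 the members numbered 2, 1 and 1 of 10, beside 26.2%, 29.0% and 6.69% of all tested genes. Without AngII libraries 3, 4 and 5, 0 members were called in AngII against Sham, and their median difference was -0.58. That fit, with AngII libraries 1 and 2 alone in their group, called 22 of all tested genes in this comparison. Every member's estimate was below 0 in AngII against Sham and in AngII + RvE1 against Sham, with medians of -0.86 and -0.84, beside medians of 0.11 and 0.01 over all tested genes, of which 35.5% and 46.9% were below 0. Rescaling the libraries by their median ratio moved the median of all genes in AngII against Sham to -0.0038 and changed no sign among these estimates. The AngII + RvE1 minus AngII estimates of the members ran from -0.42 to 0.87, with 3 below 0 (64.1% of all tested genes were) and a median of 0.07 beside -0.11 over all genes, and Elovl6 was -0.08, or 0.018 when rescaled. Each pair of these comparisons shares the libraries of 1 group.

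**Figure D2:**
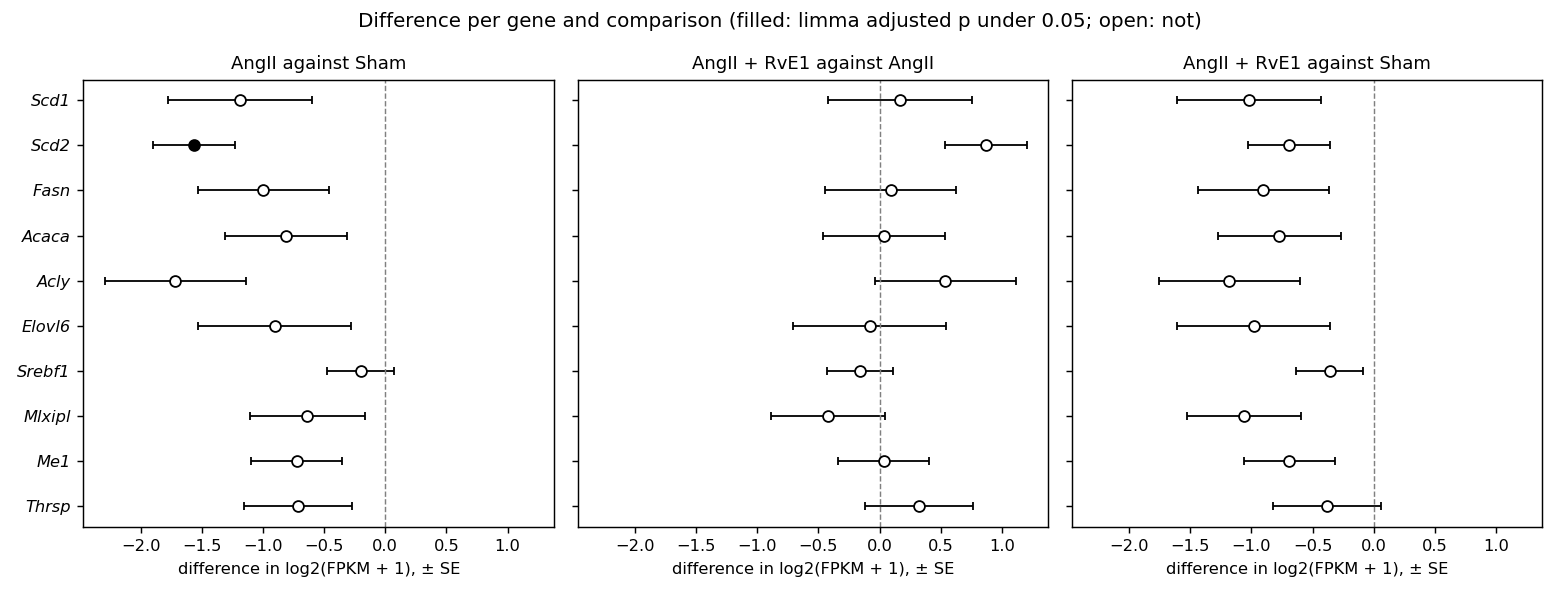
Difference in log2(FPKM + 1) with its standard error (horizontal) for the 10 genes (vertical) in the 3 comparisons, from limma. A filled point marks an adjusted p under 0.05, reached by Scd2 in AngII against Sham at -1.56; all estimates against Sham lie left of 0.

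Most members were high and low in the same libraries. AngII + RvE1 library 2 held the group's highest value for all 10 genes, and AngII + RvE1 library 5 the lowest for 9, the exception being Thrsp. AngII library 3 was lowest for 8 genes, other than Scd2 and Srebf1, whose lowest was AngII library 2. Sham library 1 was lowest for 8 genes, other than Srebf1 and Me1, and Sham libraries 2, 3 and 4 shared the highest values. Scd2 therefore followed the other members within AngII + RvE1 and Sham but was not at its lowest in AngII library 3. Members counted here share libraries and are not independent of each other.

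**Figure D3:**
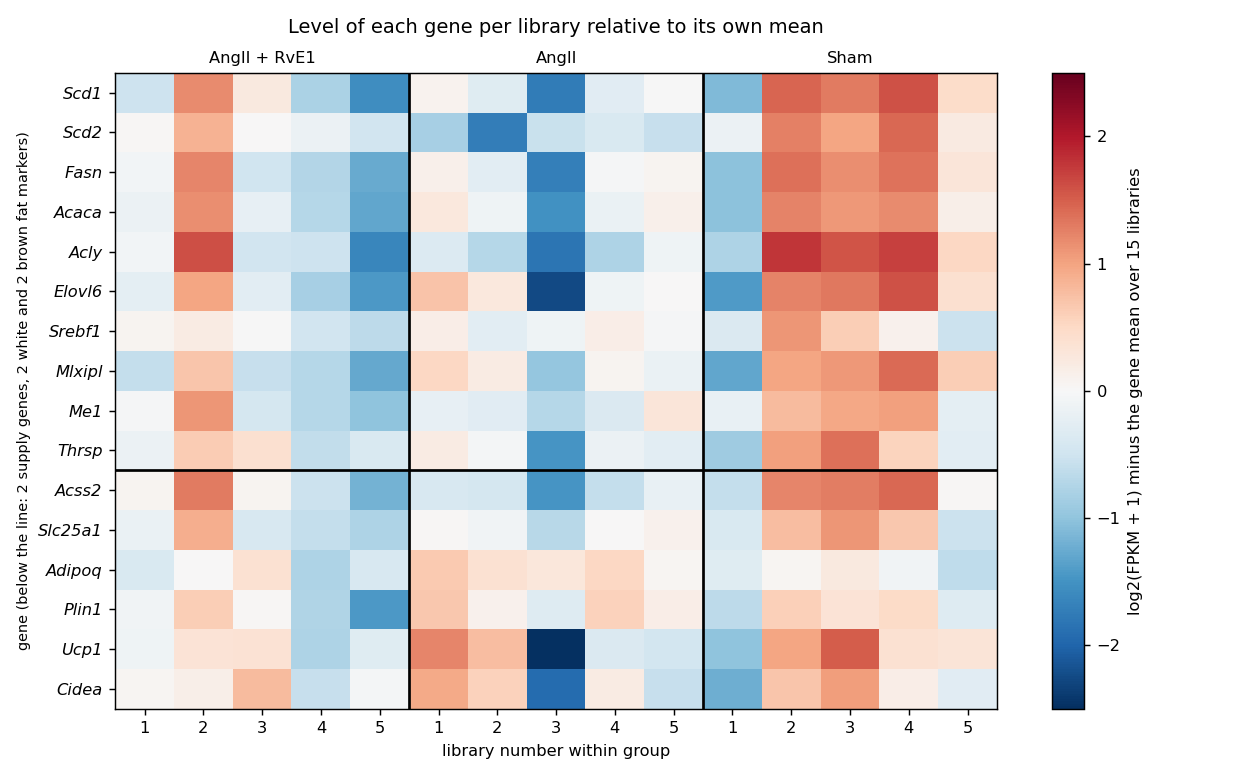
Log2(FPKM + 1) of each gene minus its mean over the 15 libraries (colour scale), with libraries across and genes down. The 10 members stand above the line; below it are Acss2 and Slc25a1, which supply acetyl-CoA and citrate, the white fat markers Adipoq and Plin1 and the brown fat markers Ucp1 and Cidea. AngII + RvE1 library 2 and Sham libraries 2, 3 and 4 are high across the members.

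Fat cell markers moved with these levels in some libraries. In AngII library 3, where 8 members were lowest, Ucp1, the uncoupling protein of brown fat, was 192 FPKM, against 1057 to 3412 FPKM in the other 4 AngII libraries. The white fat adipokine gene Adipoq was 682 FPKM there, within their range of 577 to 882. The 10 white adipocyte markers together summed to 9427 FPKM there, the lowest of the group, with 11722 to 17808 FPKM in the other 4. Sham library 1, the lowest Sham library for 8 members, had 729 FPKM of Ucp1 against 1827 to 4133 in the other 4. Its white adipocyte marker sum, 7599 FPKM, was also the lowest of its group. Single white markers differed: Fabp4, Plin1, Lipe and Pnpla2 were lowest of their group in AngII library 3 and in Sham library 1. Retn was the highest of its group in both, at 776 and 429 FPKM. In AngII + RvE1 library 2, the highest for all 10 genes, the white adipocyte markers summed to 10870 FPKM, the second highest sum of its group, and the brown adipocyte markers to 4930 FPKM, the median of its group. Every white adipocyte marker other than Adipoq and Fabp4 was at its group's highest in that library, with Plin1 at 355 FPKM and Lipe at 396 FPKM. The part of fat content in the members' levels was not tested beyond the fits that follow.

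Levels were therefore also set against the white adipocyte markers of the same library, as log2(FPKM + 1) of the member minus the mean of the 10 markers, a measure added after the levels had been seen. Scd2 lay between -2.55 and -2.21 log2 units in AngII + RvE1, between -4.52 and -3.42 in AngII and between -2.46 and -1.51 in Sham. AngII libraries stood below all others. Srebf1 was between -2.46 and -1.86 in AngII + RvE1, between -2.78 and -2.52 in AngII and between -2.44 and -1.57 in Sham, again with no overlap of AngII with either group. Before the subtraction Srebf1 overlapped between all groups, with means of 44.0, 48.3 and 60.7 FPKM in AngII + RvE1, AngII and Sham. The subtracted marker mean averaged 7.63, 8.26 and 7.96 log2 units in the same groups. In AngII against Sham, 3 of 10 members were lower without overlap (Scd2, Srebf1 and Me1), beside 1.14% of 12593 genes set against the same markers. Between AngII + RvE1 and AngII, 3 were higher without overlap (Scd2, Srebf1 and Thrsp), beside 5.94%. AngII + RvE1 and Sham overlapped for all 10, beside 0.0397% lower and 0.635% higher. On this measure the members' median differences were -1.16 in AngII against Sham, 0.69 in AngII + RvE1 against AngII and -0.51 in AngII + RvE1 against Sham. The medians of all genes so measured were -0.19, 0.52 and 0.34, so the measure itself shifted most genes.

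With the marker mean as a covariate in limma, 7 members were lower in AngII than in Sham: Acly (-2.34, adjusted p = 0.00698), Scd2 (-1.93, 0.000962), Scd1 (-1.81, 0.0294), Fasn (-1.57, 0.0317), Acaca (-1.37, 0.0349), Thrsp (-1.17, 0.0455) and Me1 (-1.13, 0.0282). In that fit 1.62% of tested genes were called lower. Scd2 was higher by 1.64 in AngII + RvE1 than in AngII (adjusted p = 0.0396), as 1 of 8 genes called there, with 0.0397% of tested genes called higher. With the brown adipocyte mean as covariate, added after the data were seen, Scd2 was the 1 member called lower in AngII than in Sham (-1.57, limma adjusted p = 0.0127), beside 2.54% of tested genes. These covariates are themselves levels of fat cell genes in the same libraries: the white list had a median log2 difference of 0.28 in AngII against Sham and -0.54 in AngII + RvE1 against AngII.

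**Figure D4:**
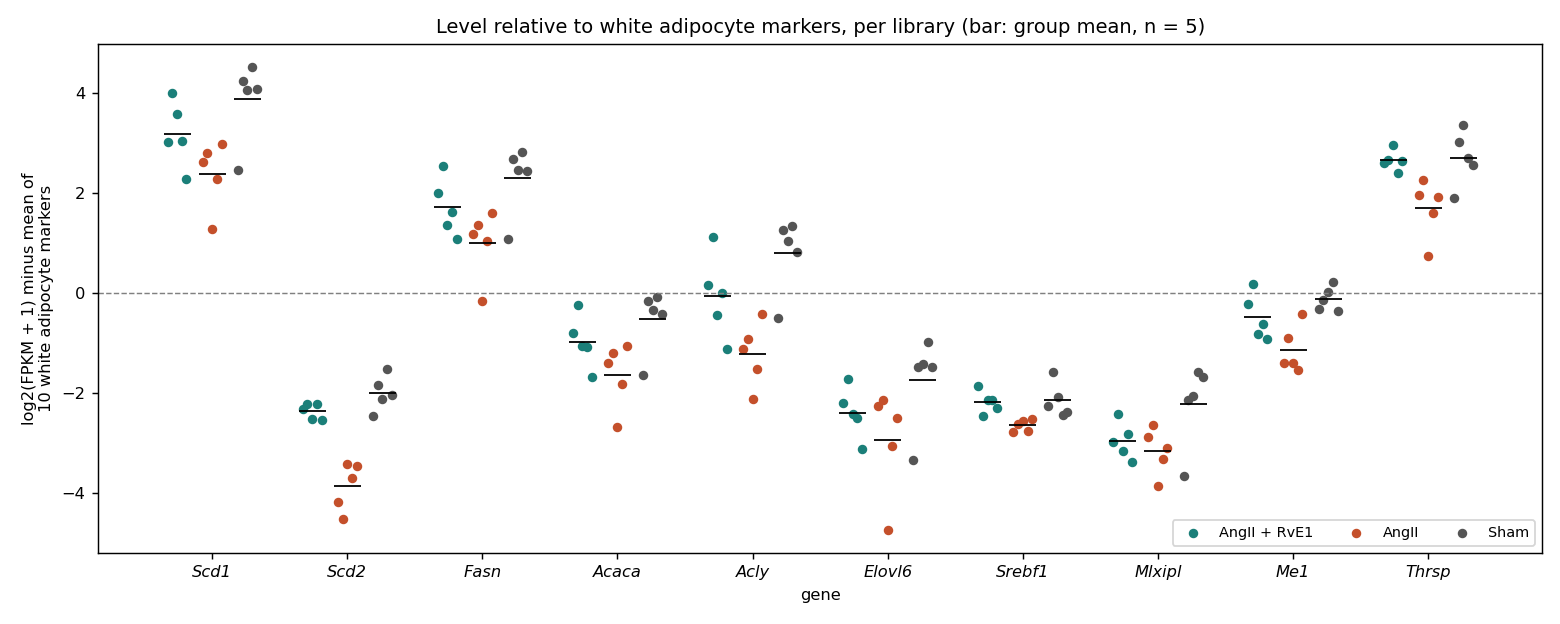
Log2(FPKM + 1) of each member minus the mean of 10 white adipocyte markers in the same library (vertical), by gene and group. Points are libraries, bars group means (n = 5). The AngII points of Scd2, at most -3.42, lie below all points of AngII + RvE1 and Sham.

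Markers of other cell types also differed between the groups. All 8 smooth muscle markers tested were called higher in AngII + RvE1 against AngII (list median 1.91). Of all tested genes, 8.52% were called there in either direction. In AngII against Sham all 8 estimates were below 0 (list median -1.24) and all 8 had an unadjusted limma p under 0.05. Of the 8, 1 was called lower, beside 0.809% of all tested genes. Within each of the 3 groups the library with the highest smooth muscle sum held the lowest Scd2 value. The library with the lowest sum held the highest Scd2 value in AngII + RvE1 and the median value in AngII and in Sham. Without AngII libraries 3, 4 and 5, 0 of the 8 were called in either comparison, with medians of 1.54 and -0.86. Macrophage markers summed to 227 to 301 FPKM in AngII + RvE1, 226 to 2867 FPKM in AngII and 187 to 302.0 FPKM in Sham. Of 7, 2 rose in AngII against Sham (the complement genes C1qa and C1qb, list median 1.47) and 3 fell in AngII + RvE1 against AngII (Csf1r, Mrc1 and Cd68, list median -1.19). Calls in either direction made up 3.17% and 8.52% of all tested genes in these comparisons. Without AngII libraries 3, 4 and 5, 0 of 7 were called and the medians were 0.37 and -0.35. Schwann cell markers, which are genes of myelin and of the glia that form it, had medians of 1.03 in AngII against Sham and -0.47 in AngII + RvE1 against AngII, with 0 of 9 called. With their mean as covariate Scd2 differed by -1.95 in AngII against Sham (limma adjusted p = 0.109). The clock gene Dbp was 34.2 to 86.5 FPKM in AngII + RvE1, 47.3 to 110.0 FPKM in AngII and 2.18 to 6.68 FPKM in Sham, and several lipogenic genes follow the daily feeding rhythm in rodents. The part of smooth muscle, of macrophages and of time of day in the Scd2 difference was not tested.

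Further desaturases, elongases and their partner enzymes were listed next. Of 20 listed, 14 were tested. In AngII against Sham, 0 rose and 1 fell: Elovl5, an elongase of polyunsaturated fatty acids, was 31.2 ± 6.44, 33.1 ± 3.64 and 52.5 ± 11.7 FPKM in AngII + RvE1, AngII and Sham, and AngII minus Sham was -0.63 (SE 0.16, limma adjusted p = 0.0496). For AngII + RvE1 against AngII, 3 rose and 1 fell. Of all tested genes, 3.17% were called in AngII against Sham and 8.52% in AngII + RvE1 against AngII, in either direction. Fads2, a front-end desaturase of polyunsaturated fatty acid synthesis, was 20.3, 12.97, 13.2, 23.3 and 20.2 FPKM in AngII + RvE1, 7.12, 6.89, 7.62, 7.73 and 7.57 FPKM in AngII, and 19.5, 10.1, 4.97, 13.5 and 12.4 FPKM in Sham. AngII + RvE1 and AngII did not overlap for Fads2 (log2 difference 1.14, SE 0.26, limma adjusted p = 0.0212), beside 11.1% of tested genes without overlap in either direction. Cyb5r3, the cytochrome b5 reductase that passes electrons to desaturases, rose by 0.94 (adjusted p = 0.0190), and Hacd1, a dehydratase of the elongation cycle abundant in muscle, rose by 1.03 (0.0328). Hacd2, its more widely expressed relative, fell by 0.86 (0.0417). In AngII + RvE1 against Sham 0 of 14 were called by limma, and 3 had an unadjusted p under 0.05 (6.69% of all tested genes did). Without AngII libraries 3, 4 and 5 none of the 14 was called in any of the 3 comparisons. The list median was then 0.31 in AngII + RvE1 against AngII, beside 0.19 with all libraries, and -0.35 in AngII against Sham, beside -0.21, and that fit called 6 and 22 of all genes.

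Of all tested genes, 3.17% were called in AngII against Sham and 8.52% in AngII + RvE1 against AngII, in either direction. Of the 19 other regulators listed, 0 were called in AngII against Sham and 1 fell in AngII + RvE1 against AngII. It was Nr1h3, which encodes the oxysterol receptor LXR alpha, an activator of Srebf1 (22.9 ± 5.78, 35.4 ± 1.20 and 27.8 ± 7.01 FPKM in AngII + RvE1, AngII and Sham, SD, n = 5 each; log2 difference -0.64, limma adjusted p = 0.0421). Insig1, which retains SREBP in the endoplasmic reticulum and is itself an SREBP target, averaged 54.5 ± 22.5, 49.96 ± 17.6 and 117 ± 60.6 FPKM in the same groups and did not pass in AngII against Sham (-1.09, adjusted p = 0.0987). Among 12 genes of acetyl-CoA and NADPH supply, 10 of triglyceride assembly and 5 tested of mitochondrial fatty acid synthesis, limma called 0 in each comparison. At an unadjusted p under 0.05 the counts in AngII against Sham were 2, 4 and 0, where 26.2% of all tested genes reached it. Acss2, which makes acetyl-CoA from acetate, was 36.1 to 205 FPKM in AngII + RvE1, 29.4 to 72.8 FPKM in AngII and 54.9 to 225 FPKM in Sham (AngII against Sham -1.30, adjusted p = 0.102).

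Genes outside the 10 whose log2 levels were most like a member's over the 15 libraries were ranked by Pearson r, as a description. For Fasn these were Tlcd3b (r = 0.983), the transketolase gene Tkt of the pentose phosphate pathway (r = 0.969) and Dhrs7 (r = 0.961). Tkt ran from 232 to 896 FPKM in AngII + RvE1, 170 to 584 FPKM in AngII and 269 to 1171 FPKM in Sham. For Scd1 they were Slc25a48 (r = 0.971), Lactb2 (r = 0.970) and the cholesterol synthesis gene Nsdhl (r = 0.964). For Scd2 the likeness was lower, with A530016L24Rik (r = 0.905), Zfp185 (r = 0.890) and Ptger3, a prostaglandin E2 receptor gene (r = 0.888). Libraries share cell content and scaling, which enter every such value.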

How the data were processed

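RNA-seq values of 15 mouse aorta libraries were used, 5 per group. The authors deposited 1 table of gene symbols and values, treated as FPKM. Its header names no unit, scaling to length is assumed, and TPM over a wider gene set cannot be told apart. The mm10 build comes from the submitters' processing notes, and the sources used here give no aligner, quantifier or annotation. On genes with 1 annotated transcript, at most 16.6% of low values per library fell within 0.05 of a whole multiple of any unit, where even spacing gives 10%, so no counts were recovered. No 2 libraries were identical (highest r = 0.983).

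Genes reaching a value of 1 in 5 or more libraries were tested, and log2(FPKM + 1) was fitted with limma-trend (limma 3.58.1, R 4.3.3), 1 mean per group, two-sided, with Benjamini-Hochberg adjustment over 12603 genes at 0.05. Because of the added 1, differences of low genes are understated. The procedure was tested on simulated data. Alternatives were another added value, no filter, fits of 2 groups, median-ratio rescaling, array weights, a replicate block, marker covariates and leaving out libraries. Named were all 10 members, up to 3 called genes per list and comparison, and the 3 genes most like Scd1, Scd2 and Fasn; Ucp1, Adipoq, Insig1, Acss2, Dbp, Hacd2 and Tkt ranges were added after the values were seen. The members and lists were chosen with earlier results of these data known.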

Additional observations from a re-analysis of the deposited data

Results flagged for a closer look

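A library far from the other 4 of its group was looked for in each of the 30 combinations of a member and a group. The gap to the nearest library, over the range of the group, had to pass 0.71 on the linear FPKM scale. Chance gives about 1 in 20 for normally spread values, which these levels were not shown to be. The log2 scale of the fits was not used, so no excess over chance is claimed. Of the 30 combinations, 6 passed, and all 6 were the highest value in AngII + RvE1 library 2: Scd2 at 66.7 FPKM, Fasn at 1837, Acaca at 266, Acly at 678, Mlxipl at 57.2 and Me1 at 357. These genes vary together, so the 6 are not separate events. Without that library, the AngII + RvE1 against AngII log2 difference was -0.28 for Fasn and 0.08 for Acly, against 0.09 and 0.54 with it.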

How the results depend on the processing

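The Scd2 call in AngII against Sham did not hold without the filter on low values, in a fit of AngII and Sham alone, with the Schwann cell covariate or without AngII libraries 3, 4 and 5 (0 members called in each); array weights called 3 members and the white adipocyte covariate 7. In AngII + RvE1 against AngII the white adipocyte covariate called 1. Replicate numbers did not pair the samples (correlations of same-numbered libraries from -0.414 to 0.521, 2 of 15 libraries closest to their own number). With the replicate block, calls over all genes were 109, 433 and 1 in the 3 comparisons and 0 members were called. All genes called in AngII against Sham, 400 as reported, were 151 without the filter, 37 with AngII and Sham alone, 2821 with array weights, 620, 16 and 1616 with the white adipocyte, Schwann cell and brown adipocyte covariates and 22 without AngII libraries 3, 4 and 5. In AngII + RvE1 against AngII the 1074 became 405 without the filter, 4469 with array weights, 8, 275 and 2699 with the 3 covariates and 6 without those libraries. In AngII + RvE1 against Sham the 3 became 1 without the filter and in the fit of the 2 groups alone, 17 with array weights, 1, 1 and 6 with the covariates and 5 without those libraries. Rescaling changed the AngII against Sham calls from 298 higher and 102 lower (74.5% higher) to 259 and 282 (47.9%), and those of AngII + RvE1 against AngII from 531 and 543 (49.4%) to 819 and 479 (63.1%).

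With 1 library left out, all genes called ran from 76 to 1719, 98 to 2035 and 1 to 8, and members called from 0 to 2 in AngII against Sham and 0 in the others. Some differences changed sign. In AngII against Sham, Srebf1 ran from -0.38 to 0.030. In AngII + RvE1 against AngII, Scd1 ran from -0.20 to 0.48, Fasn from -0.28 to 0.34, Acaca from -0.31 to 0.30, Elovl6 from -0.58 to 0.19 and Me1 from -0.30 to 0.23. Without AngII libraries 3, 4 and 5, Scd1 was -0.17, Fasn -0.20, Acaca -0.32 and Thrsp -0.10 in that comparison; with array weights Scd1 was -0.055, Fasn -0.094 and Acaca -0.040. Elovl6 was 0.018 when rescaled, and with the white adipocyte covariate Elovl6 was 1.24, Srebf1 0.48 and Mlxipl 0.58, and Thrsp was 0.12 in AngII + RvE1 against Sham. The causes were not tested. The Scd2 minus Scd1 level kept its direction and missed the threshold under every alternative run. Read depth is unknown, so counting error cannot be given, and 5 libraries per group with up to 9.58-fold spread within a group limit what could be called.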
